A study of Mus musculus with 18 samples.

Results

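A set of 4 genes of the flavin-containing monooxygenase family, Fmo1, Fmo2, Fmo4 and Fmo5, was followed in mouse liver by RNA-sequencing. They were taken by their gene symbols from the 52230 genes of the joined tables, and all 4 were among the 10938 genes that had at least 10 counts in at least 4 libraries. The series holds 18 livers, 1 library per mouse, from the GCKR-P446L-EMI-B6N line, in which codon 446 of Gckr, the gene of the glucokinase regulatory protein (GKRP), encodes either the wild-type proline or a leucine. The groups were male mice with GKRP-446P (male PP, n = 4, aged 9 to 14 weeks), male mice with GKRP-446L (male LL, n = 4, 13 to 14 weeks), female mice with GKRP-446P (female PP, n = 5, 9 to 14 weeks) and female mice with GKRP-446L (female LL, n = 5, 11 to 14 weeks), all on standard chow. These ages are those given for single mice, whereas the text of the series gives 14 weeks for all. The change was carried in the germ line, so it was not limited to the liver, and the libraries were of whole liver.

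The flavin-containing monooxygenases sit in the membrane of the endoplasmic reticulum, hold FAD as their cofactor, and use NADPH and molecular oxygen to oxygenate nitrogen and sulphur atoms of drugs, dietary amines and some endogenous compounds. FMO1 accepts a broad range of substrates and also oxidises hypotaurine to taurine. FMO2 is known as the main form of lung, FMO4 is the least studied of these enzymes, and FMO5 differs from the others in that it acts as a Baeyer-Villiger oxidase on ketones. Levels of some forms in mouse liver are known to differ between the sexes, so the comparison of males and females is set out first and that of the genotypes after it.

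In GRCm39 the genes Fmo4 (ENSMUSG00000026692, chr1:162620757-162641541), Fmo1 (ENSMUSG00000040181, chr1:162655471-162694185) and Fmo2 (ENSMUSG00000040170, chr1:162701873-162726295) lie on the minus strand within 105539 bases of chromosome 1. Fmo5 (ENSMUSG00000028088, chr3:97531564-97562598) stands alone on the plus strand of chromosome 3. The 250 bases upstream of the outermost annotated 5′ end of Fmo2 (chr1:162726296-162726545, minus strand, GRCm39) are given because Fmo2 had the largest difference between the sexes of the 4 genes:
Fmo2 upstream: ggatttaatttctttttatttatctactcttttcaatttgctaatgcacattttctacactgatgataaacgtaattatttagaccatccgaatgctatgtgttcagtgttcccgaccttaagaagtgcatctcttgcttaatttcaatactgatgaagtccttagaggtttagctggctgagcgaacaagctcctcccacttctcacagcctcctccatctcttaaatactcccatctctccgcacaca
They hold no annotated exon, and 39.2% of them are G or C, against a median of 51.2% over the same window of 21757 protein-coding genes. Only 11.7% of these windows have a G and C content as low or lower. Neither strand of the window holds any of 6 motifs searched, which were TTCNNNGAA of STAT5 (in 7.82% of all windows), CACGTG of the E-box (5.69%), CAAAGTCCA of HNF4 (0.368%), GTTAAT of HNF1 (6.88%), ATCNAT of HNF6 (19.5%) and TATAAA of the TATA box (12.5%).

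The libraries held 3794671 to 6613905 estimated counts each. Normalized counts, that is estimated counts divided by the size factor of the library, are used throughout unless TPM is named. Xist was at 2077 to 3297 in every library labelled female and at most 5.40 in those labelled male, and Eif2s3y was at 0 in females and at 171 to 229 in males, so the libraries matched their sex labels. Gckr, whose amino acid change cannot be seen in gene counts, was at 518 ± 82.2 in male PP, 478 ± 24.6 in male LL, 611 ± 114 in female PP and 592 ± 60.6 in female LL (SD, n = 4, 4, 5 and 5). Fragment lengths differed between groups, with 518 ± 95.7 bases in male PP, 407 ± 156 in male LL, 448 ± 108 in female PP and 292 ± 52.1 in female LL.

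Averaged over the 18 libraries, Fmo5 had 1842 normalized counts, placing it 275th among the 10938 genes, and Fmo1 had 1184, placing it 423rd. Fmo2 followed with 120 and Fmo4 with 38.97, so that the values of Fmo4 rest on few reads.

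All 4 genes differed between female PP and male PP, 3 of them higher and 1 lower in females. In this comparison 6.45% of all genes tested were differentially expressed (DEGs), 3.68% higher and 2.77% lower in females. A gene counted as a DEG when its adjusted P with DESeq2 was below 0.05 and its level was at least 1.3 or no more than 0.7 times that of the other group. None of the 4 genes had any overlap between the 4 male PP and the 5 female PP livers, which was so for 9.74% of all genes. In the separate set of LL mice, all 4 genes again passed these limits in the same directions, where 6.12% of all genes passed, 3.33% higher and 2.79% lower in females.

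**Figure D1:**
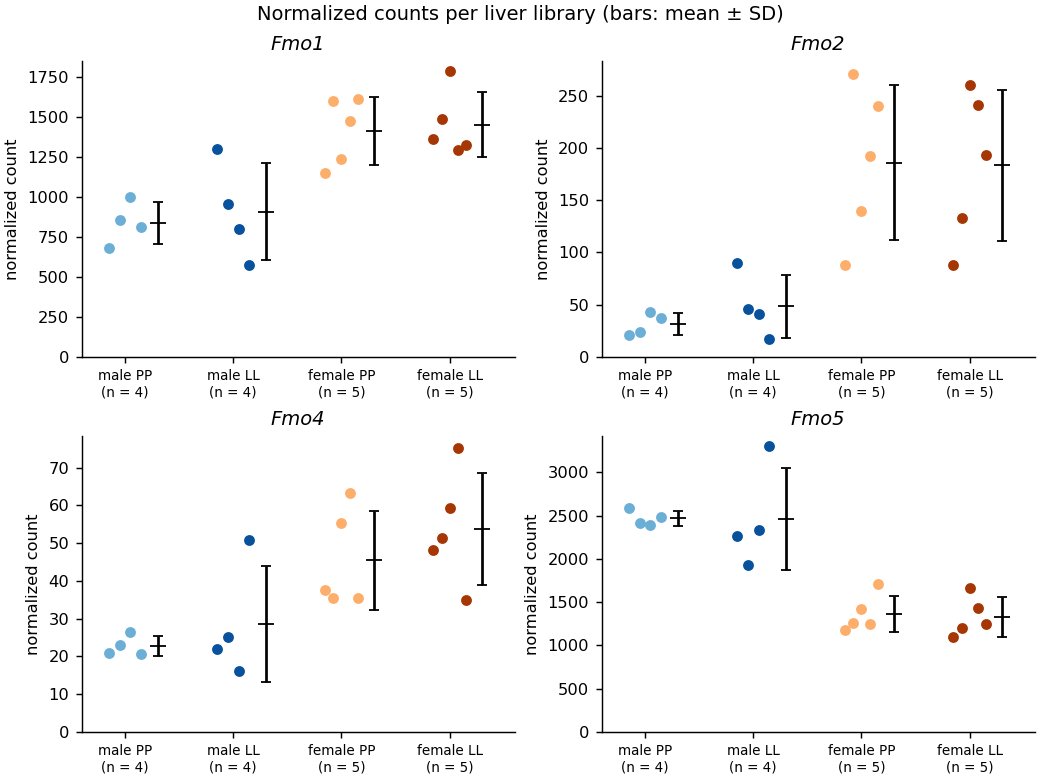
Normalized counts of the 4 genes (vertical axes, starting at 0) in each liver library (points) of the 4 groups, with the mean and SD as bars to the right of the points. Fmo1, Fmo2 and Fmo4 lie higher in female than in male groups and Fmo5 lies lower, with male LL 4 the lowest male LL point for Fmo1 and Fmo2 and the highest for Fmo4 and Fmo5.

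Fmo2 had the largest difference. Its normalized counts were 20.8, 24.1, 43.2 and 36.9 in male PP and 87.8, 271, 139, 193 and 240 in female PP. The lowest female value was thus above the highest male value, although the female values themselves varied widely. The log2 fold change was 2.56 ± 0.40 (SE), or 5.89-fold with a 95% interval of 3.44 to 10.1, and the adjusted P with DESeq2 was 1.09e-08. The LL values were 89.4, 45.6, 41.0 and 17.3 in males and 88.3, 133, 261, 242 and 194 in females. Only male LL 1 reached into the female range, lying just above the lowest female. Females were higher by 1.93 ± 0.39 on the log2 scale (adjusted P with DESeq2 of 5.24e-05), which is 3.82-fold (95% interval 2.25 to 6.48).

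Fmo5, the ketone-oxidising member, was the one gene lower in females. It was at 2587, 2413, 2391 and 2487 in male PP and at 1181, 1261, 1415, 1248 and 1704 in female PP. The male PP values were close together and all above the female ones. This gave a log2 fold change of -0.86 ± 0.16 (adjusted P with DESeq2 of 3.33e-06), leaving females at 0.552 of the male level (95% interval 0.445 to 0.683). In LL mice Fmo5 was at 2265, 1931, 2333 and 3309 in males and 1095, 1196, 1669, 1430 and 1245 in females, and it was the only one of the 4 genes whose male and female LL values did not overlap, as was so for 8.16% of all genes. Here the log2 fold change was -0.89 ± 0.16 (adjusted P with DESeq2 of 1.93e-06), a female level of 0.540 of the male one (95% interval 0.436 to 0.668).

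Fmo1, the broad-range enzyme that also forms taurine, was at 678, 857, 997 and 813 in male PP and at 1149, 1602, 1235, 1473 and 1616 in female PP. Every female value was above every male one, by a log2 fold change of 0.76 ± 0.19 (adjusted P with DESeq2 of 0.00214), or 1.69-fold (95% interval 1.31 to 2.19). In LL mice it was at 1297, 957, 800 and 575 in males and 1366, 1485, 1790, 1291 and 1326 in females. Male LL 1 lay just above the lowest female, and the other male values lay below all females. The log2 fold change was 0.68 ± 0.19 (adjusted P with DESeq2 of 0.00996). This call was lost without male LL 4 (log2 fold change 0.51, adjusted P 0.0533), with a term for fragment length (0.61, adjusted P 0.0639) and with edgeR (0.68, adjusted P 0.0517). With an offset for transcript length, the calls for Fmo1 were lost in PP mice (0.36, adjusted P 0.555) and in LL mice (0.65, adjusted P 0.209).

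Fmo4 was the least abundant of the 4. It was at 20.8, 23.1, 26.3 and 20.7 in male PP and at 37.5, 35.5, 55.4, 63.4 and 35.4 in female PP, without overlap. Females were higher by 0.99 ± 0.31 on the log2 scale (adjusted P with DESeq2 of 0.0267), with a 95% interval of 0.38 to 1.60. In LL mice it was at 22.0, 25.2, 16.1 and 50.8 in males and 48.3, 51.4, 59.4, 75.3 and 35.0 in females. Male LL 4 stood within the female range while the other 3 males were below it. This gave a log2 fold change of 0.92 ± 0.31 (adjusted P with DESeq2 of 0.0410). The call in PP mice was lost with edgeR (adjusted P 0.0594) and on leaving out female PP 3 (0.0847), female PP 4 (0.101), male PP 1 (0.0811), male PP 2 (0.0718) or male PP 4 (0.0925). In LL mice it was lost with edgeR (0.0765), the offset for transcript length (log2 fold change 0.78, adjusted P 0.272), only the 2 groups compared (0.110) and no low-count filter (0.0579), and on leaving out female LL 1 (0.0596), 2 (0.0578), 3 (0.0737) or 4 (0.144), or male LL 1 (0.149), 2 (0.121) or 3 (0.171).

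**Figure D2:**
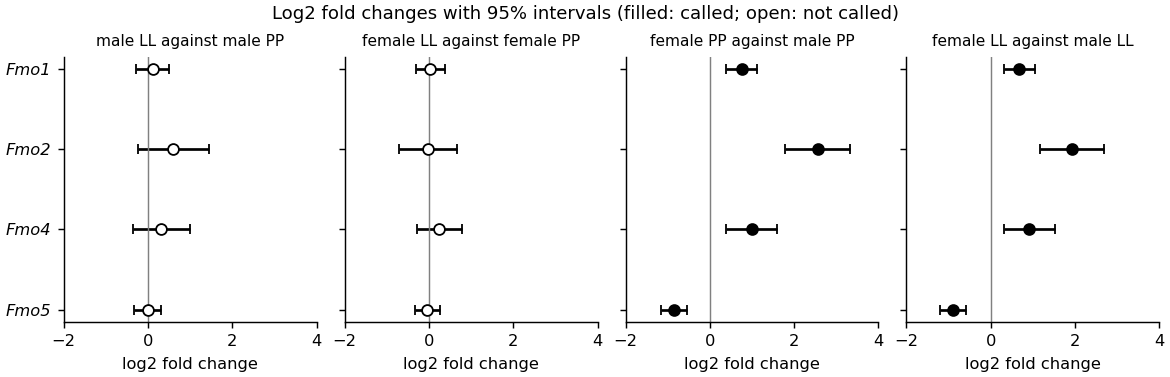
Log2 fold changes (horizontal axes) of the 4 genes in the 4 comparisons of groups, as points with 95% intervals. The points are filled where the gene was differentially expressed and open where it was not. All intervals of the female against male comparisons exclude 0 and all intervals of the LL against PP comparisons include it.

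Some markers of liver cell types differed between the sexes in the same libraries, mainly in PP mice. The summed normalized counts of 4 endothelial markers were 125 to 242 in male PP and 251 to 513 in female PP, and those of 4 stellate cell markers were 226 to 465 and 511 to 695. The 4 hepatocyte markers, mostly Alb, summed to 352270 to 453430 in male PP and 668816 to 771277 in female PP. By group means Alb and Ttr were higher in female PP, while Apoa1 was at 20152 in male PP and 20224 in female PP and Hnf4a at 1843 and 1680. In LL mice the endothelial sums were 169 to 230 in males and 186 to 358 in females, the stellate sums 408 to 679 and 322 to 741, and the hepatocyte sums 444896 to 534960 and 571469 to 694780. The sums of 4 Kupffer cell markers overlapped between male PP (398 to 985) and female PP (724 to 911), as did those of 4 cholangiocyte markers (66.6 to 113 and 53.4 to 114) and 3 leukocyte markers (16.0 to 30.4 and 18.2 to 32.7). In female PP against male PP, 1 of 4 hepatocyte, 2 of 4 endothelial and 2 of 3 stellate markers tested rose. In female LL against male LL only 1 of 4 Kupffer cell markers did, and no endothelial, stellate or hepatocyte marker. The part of these markers in the Fmo differences was not tested, and in whole liver more cells of a type cannot be told apart from more RNA per cell. The lung markers Sftpc, Sftpb and Scgb1a1 were at 0 in all 18 libraries. The kidney markers Umod and Slc34a1 were also at 0 and Kap did not exceed 0.909, and of the fat markers Adipoq was at 0 with Plin1 at most at 0.910 and Cfd at most at 1.60.

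To compare the genes with each other, TPM, which is scaled for transcript length, was summed over transcripts of at least 1500 bases. This limit was set after short transcripts were seen to hold much of the TPM in single libraries, up to 64.4% of that of Fmo1 on Fmo1-205 (584 bases) and 50.2% of that of Fmo5 on Fmo5-205 (848 bases). On this scale Fmo1 was at 30.4 ± 7.72 TPM in male PP, 48.3 ± 25.8 in male LL, 98.8 ± 19.2 in female PP and 91.7 ± 11.9 in female LL (SD, n = 4, 4, 5 and 5). Fmo5 was at 74.3 ± 12.8, 96.0 ± 7.90, 73.0 ± 9.60 and 69.0 ± 13.3 TPM in the same order. By group means Fmo5 was thus first in males and Fmo1 first in females, and so it was with TPM as deposited (Fmo1 at 74.5, 93.7, 160 and 182 TPM and Fmo5 at 87.6, 104, 92.7 and 69.5).

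Within single libraries, the ratio of Fmo1 to Fmo5 TPM over transcripts of at least 1500 bases was 0.314, 0.497, 0.484 and 0.349 in male PP and 0.736, 0.637, 0.424 and 0.193 in male LL. It was 1.24, 1.62, 1.20, 1.32 and 1.36 in female PP and 1.39, 1.54, 1.25, 1.15 and 1.404 in female LL. On this scale all 8 males were below 1 and all 10 females above it, and within each sex the PP and LL values overlapped. The split at 1 rests on the length limit, which was set after seeing the data. With TPM as deposited, 4 of 8 males and all 10 females were above 1, and the sexes overlapped, with males at 0.408 to 1.22 and females at 1.07 to 3.47. With normalized counts, which are not scaled for length, all 8 males and 4 of 10 females were below 1, and males at 0.174 to 0.573 did not overlap with females at 0.873 to 1.27. A ratio within a library does not depend on how libraries are scaled to each other.

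**Figure D3:**
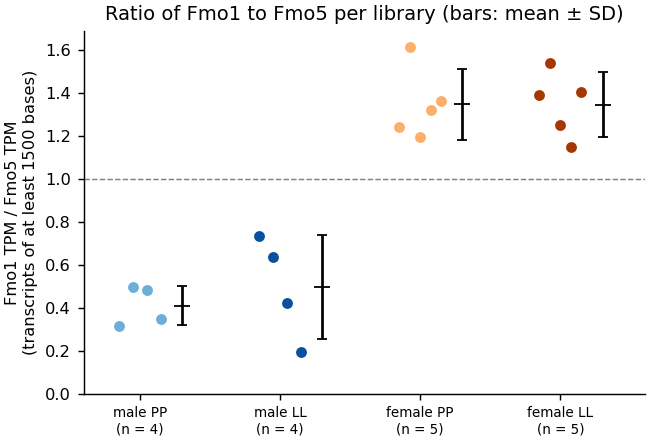
Ratio of Fmo1 to Fmo5 TPM over transcripts of at least 1500 bases (vertical axis, starting at 0) in each library of the 4 groups, with the mean and SD as bars and a dashed line at 1. Male values lie between 0.193 and 0.736 and female values between 1.15 and 1.62.

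Fmo2 and Fmo4 were far below the other pair. Fmo2 was at 0.784 ± 0.242 TPM in male PP, 1.72 ± 1.19 in male LL, 8.24 ± 3.44 in female PP and 8.46 ± 3.50 in female LL. Fmo4 was at 0.748 ± 0.104, 1.37 ± 0.549, 2.75 ± 0.954 and 3.45 ± 1.07 TPM. In both male groups the mean TPM of Fmo2 and Fmo4 were within 1 SD of each other, and in both female groups Fmo2 had the higher mean.

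TPM did not keep the sex difference of Fmo5 in PP mice. The log2 ratio of female PP to male PP means was 0.08 with TPM as deposited and -0.02 over transcripts of at least 1500 bases. On this scale, however, the median of all genes was shifted by 0.74 in female PP against male PP and by 0.29 in female LL against male LL, while it was near 0 with normalized counts. Relative to that median, Fmo5 was lower in females by a log2 ratio of -0.66 in PP mice and -0.87 in LL mice with TPM as deposited, and by -0.77 in both over transcripts of at least 1500 bases. Relative to the same median and over these transcripts, Fmo1 was higher by 0.96 in PP and 0.63 in LL mice, Fmo2 by 2.65 and 2.00, and Fmo4 by 1.13 and 1.04.

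The P446L change was addressed by comparing LL with PP mice within each sex. None of the 4 genes was differentially expressed by genotype in either sex, where 0.283% of all genes passed in males (0.21% higher and 0.0731% lower) and 0.658% in females (0.366% higher and 0.293% lower). The PP and LL values overlapped for each of the 4 genes, as opposed to 4.07% of all genes without overlap in males and 2.66% in females. None of these 8 tests with DESeq2 had an unadjusted P below 0.05, and edgeR called none of the 4 genes either.

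In males the log2 fold changes of LL against PP were 0.11 ± 0.20 for Fmo1 (adjusted P with DESeq2 of 0.918), 0.60 ± 0.43 for Fmo2 (0.643), 0.32 ± 0.34 for Fmo4 (P of 0.354, given no adjusted P for its low count) and -0.01 ± 0.17 for Fmo5 (0.997). The 95% intervals of the fold change were 0.824 to 1.42 for Fmo1, 0.851 to 2.71 for Fmo2, 0.782 to 1.99 for Fmo4 and 0.795 to 1.25 for Fmo5. In females the log2 fold changes were 0.04 ± 0.18 for Fmo1 (adjusted P with DESeq2 of 0.952), -0.02 ± 0.35 for Fmo2 (0.989), 0.25 ± 0.27 for Fmo4 (0.722) and -0.04 ± 0.15 for Fmo5 (0.940). The intervals of the fold change were 0.805 to 1.31, 0.609 to 1.60, 0.821 to 1.71 and 0.796 to 1.19. In both sexes the intervals of Fmo1, Fmo2 and Fmo4 reached past the fold limit, and those of Fmo5 did not.

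The spread among male LL mice was wider than among male PP mice for all 4 genes. For Fmo5 the SD was 88.4 in male PP against 593 in male LL, for Fmo4 2.64 against 15.3, for Fmo2 10.6 against 30.1 and for Fmo1 131 against 304. Male LL 4 had the lowest Fmo1 and Fmo2 and the highest Fmo4 and Fmo5 of its group, and its ratio of Fmo1 to Fmo5 TPM over transcripts of at least 1500 bases was the lowest of all 18 livers (0.193), although with TPM as deposited it was at 0.602 and male PP 2 was lowest at 0.408. Male LL 1 had the highest Fmo1 and Fmo2 of its group. It also stood apart with 17.9% of its counts on mitochondrial genes, against 8.52 to 13.7% in the other 17 libraries. Without male LL 1, the log2 fold change of LL against PP males was 0.13 for Fmo2 and -0.11 for Fmo1, and that of female LL against male LL was 2.40 for Fmo2, 0.90 for Fmo1 and 0.82 for Fmo4. The part of the mitochondrial share in these values and the difference in spread were not tested.

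The genotype by sex interaction was tested in the same fit and called none of the 4 genes, against 0.119% of all genes. The log2 difference of the female and male LL effects was -0.08 ± 0.27 for Fmo1, -0.62 ± 0.55 for Fmo2, -0.07 ± 0.44 for Fmo4 and -0.03 ± 0.22 for Fmo5. Their 95% intervals were -0.60 to 0.45, -1.71 to 0.46, -0.93 to 0.78 and -0.47 to 0.40, widest for Fmo2. DESeq2 gave no adjusted P for Fmo2 (P of 0.260) and Fmo4 (0.869) and adjusted P values of 0.949 for Fmo1 and 0.980 for Fmo5.

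Fmo1 and Fmo2, neighbours on chromosome 1, moved together over the livers. The Pearson r of their log2 normalized counts was 0.94 over the 18 libraries, 0.92 over the 8 males, 0.66 over the 10 females and 0.82 for the deviations from the group means. Fmo4, on the other side of Fmo1, had an r of 0.52 with Fmo1 and 0.60 with Fmo2 over all libraries, but -0.31 and -0.24 for the deviations. Fmo5 had an r of -0.79 with both Fmo1 and Fmo2 over all libraries, which was -0.74 and -0.69 in males and 0.51 and 0.68 in females. These values are descriptions of points that share a library and its size factor, and the pooled ones contain the difference between the sexes.

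**Figure D4:**
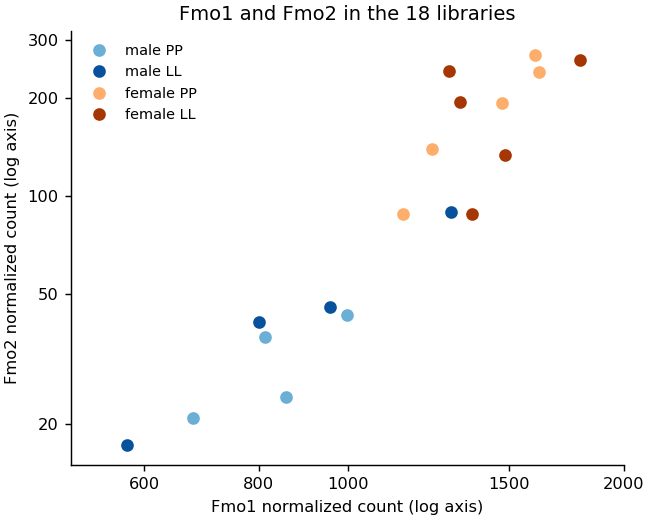
Normalized counts of Fmo2 (vertical log axis) against those of Fmo1 (horizontal log axis) in the 18 libraries, coloured by group. Males lie at the lower left and females at the upper right, with male LL 1 (1297 and 89.4) beside the lowest females.

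The genes closest in pattern were sought among 5490 protein-coding genes outside the Fmo family with a mean of at least 50 normalized counts. The r of 0.94 between Fmo1 and Fmo2 was thus not part of this search. For Fmo1 they were Rdh16 (r of 0.93 over 18 libraries), a retinol dehydrogenase, Cyp2c38 (0.92), a cytochrome P450, and Hacl1 (0.92), a peroxisomal lyase of fatty acid alpha-oxidation. For Fmo2 they were again Rdh16 (0.95) and Cyp2c38 (0.94), with Slc16a7 (0.93), a monocarboxylate transporter. For the deviations from the group means, these genes had r of 0.71 to 0.88 with Fmo1 or Fmo2. They were picked by r over the same libraries, which contains these deviations, so the values within groups are no separate test. For Fmo4 the closest genes were Hamp2, a hepcidin gene, Cyp2a4 and Ces1c, a carboxylesterase, each with an r of 0.83, falling to 0.44 to 0.62 for the deviations. For Fmo5 the closest were the Y-linked genes Eif2s3y and Ddx3y (0.90 each) and Rassf3 (0.88), with deviations at -0.33, -0.02 and 0.29, so that likeness to Fmo5 was in the difference between the sexes rather than within groups. Cyp2c38, Hamp2, Cyp2a4 and Ces1c have close paralogs, so their counts are less certain.

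The protein-coding genes around the 4 loci were examined next. Of 8 genes that start within 500 kb of the chromosome 1 members, the 3 tested were Mettl13, Vamp4 and Prrc2c, and none was differentially expressed in any of the 4 comparisons. Of 9 such genes around Fmo5, 6 were tested, and 1 of them, Notch2, a receptor gene, was higher in female PP than male PP (log2 fold change 0.56 ± 0.18, adjusted P with DESeq2 of 0.0286). In that comparison 6.45% of all genes passed. None of these 6 passed in the other 3 comparisons.

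Of 23 genes chosen for their roles beside these enzymes, with earlier results of these data known, 22 were tested. In female PP against male PP, 3 were higher and 3 lower, all within the list of 8 other oxidases and reductases, and the 4 genes of FAD supply, 5 of microsomal electron transfer and hydrolysis and 5 of hypotaurine and taurine held none. In female LL against male LL, 3 were higher and 4 lower, of which 2 and 3 were in the list of oxidases and reductases and 1 and 1 in that of hypotaurine and taurine. Over all genes tested, 6.45% passed in PP and 6.12% in LL mice, but for a list chosen in this way the difference from that share is no test. The median log2 fold change of the 22 genes was -0.10 in PP and 0.02 in LL mice, against -0.002 and 0.01 over all genes tested.

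The aldehyde oxidases were lower in females, as Fmo5 was. Aox3 was at 863 ± 330 in female PP and 2633 ± 208 in male PP (log2 fold change -1.61 ± 0.22) and at 567 ± 95.4 in female LL and 1835 ± 258 in male LL (-1.69 ± 0.22). Aox1 was at 190 ± 53.9 in female PP and 369 ± 38.1 in male PP (-0.96 ± 0.18) and at 203 ± 16.9 and 361 ± 73.6 in the LL groups (-0.83 ± 0.18). Kmo, a flavin monooxygenase of kynurenine in mitochondria, was lower in females by -0.56 ± 0.11 in PP and -0.57 ± 0.11 in LL mice. Maob, a monoamine oxidase, was higher by 0.81 ± 0.13 and 0.50 ± 0.13, and Nqo1, a quinone reductase, by 0.77 ± 0.26 and 0.78 ± 0.25. Its relative Nqo2 was higher in PP mice (0.44 ± 0.15), with a value of 0.16 ± 0.15 in LL mice that did not pass.

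Of the genes on the path that provides hypotaurine, the substrate of FMO1, Csad was lower in female LL than male LL (175.5 ± 35.8 against 476 ± 157, log2 fold change -1.44 ± 0.29) and Cdo1 was higher (6109 ± 632 against 4527 ± 822, 0.43 ± 0.13). Csad was at -0.77 ± 0.29 and Cdo1 at 0.07 ± 0.13 in the PP mice, and neither passed there. By genotype, none of the 22 passed in males and 1 passed in females, against 0.283% and 0.658% of all genes. That gene was Slc6a6, the taurine transporter, which was lower in female LL than female PP (150 ± 28.6 against 231 ± 42.9, log2 fold change -0.62 ± 0.18, adjusted P with DESeq2 of 0.0499). Por, which passes electrons to cytochromes P450 and is not needed by the flavin monooxygenases, did not pass in any comparison.

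Salmon shares reads between the transcripts of a gene, and this was examined for the 6 transcripts that held at least 10% of the counts of their gene. Fmo1-201 (2388 bases, protein coding) held 83.9% of Fmo1 counts on average and Fmo4-202 (2683 bases, protein coding) 88.8% of those of Fmo4. Fmo5 was divided between Fmo5-202 (2583 bases) with 53.3% and Fmo5-203 (5197 bases) with 40.0%, both protein coding. Both were lower in female than in male PP mice, with Fmo5-202 at 1420 ± 166 normalized counts in male PP and 718 ± 153 in female PP, and Fmo5-203 at 866 ± 141 and 519 ± 97.3. In LL mice Fmo5-202 was at 1180 ± 504 in males and 732 ± 169 in females, and Fmo5-203 at 1067 ± 282 and 577 ± 117. The Fmo5-202 value of male LL 1 (561) lay below all those of female LL (589 to 1008).

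Fmo2 differed from the rest in that most of its counts, 63.6% on average, were given to Fmo2-206 (3594 bases), annotated as a transcript with a retained intron, and 32.1% to the protein-coding Fmo2-201 (4066 bases). The division was unstable, and either transcript ranged from 0 to 100% in single libraries. Fmo2-201 was at 0, 0, 41.4 and 0 in male PP, at 89.7, 0, 41.4 and 0 in male LL, at 10.2, 100.5, 53.5, 102 and 127 in female PP, and at 9.06, 0, 101, 0 and 75.6 in female LL. Fmo2-206 was at 20.6, 18.4, 0 and 35.8 in male PP, at 0, 45.8, 0 and 16.9 in male LL, at 73.6, 159, 76.1, 90.4 and 74.0 in female PP, and at 76.5, 124, 149, 239 and 118 in female LL. All 10 female values of Fmo2-206 lay above all 8 male ones, whereas those of Fmo2-201 overlapped.

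**Figure D5:**
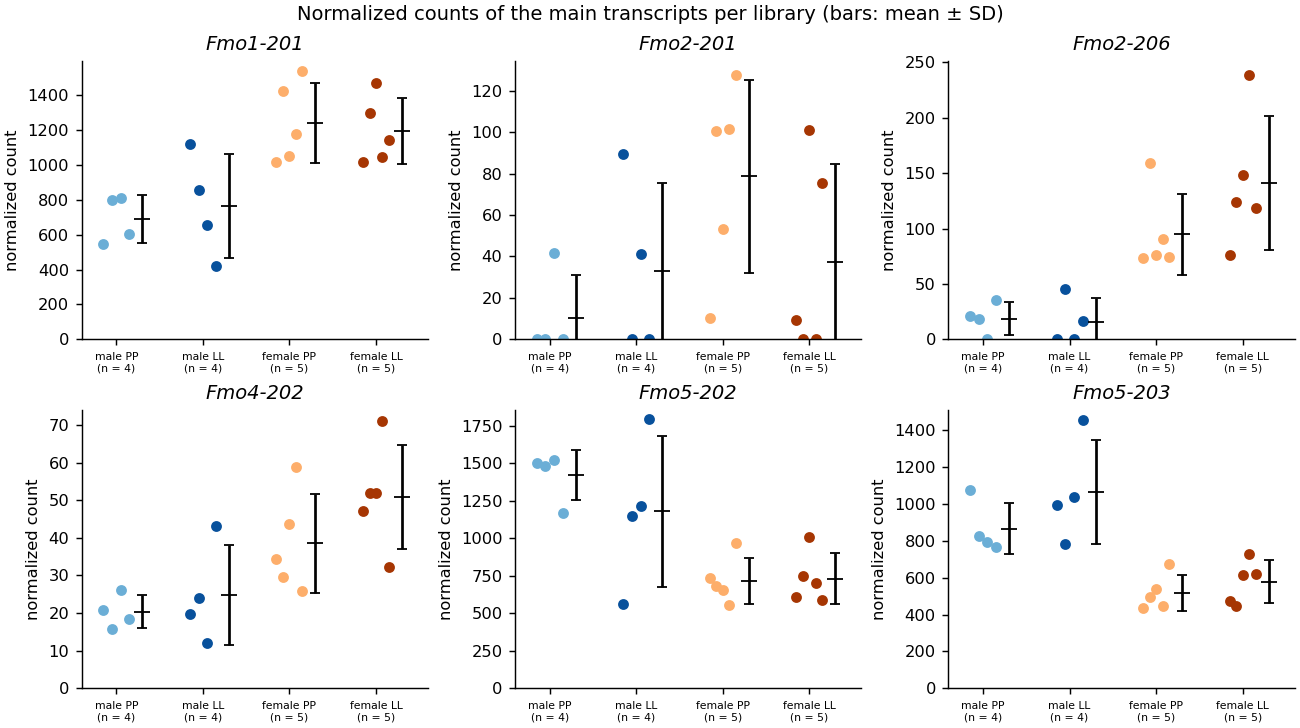
Normalized counts of the 6 main transcripts (vertical axes, starting at 0) in each library of the 4 groups, with the mean and SD as bars whose ends below 0 are not drawn. Fmo2-201 is at 0 in 7 libraries, and all female points of Fmo2-206 lie above all male ones, of which 3 are at 0.

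Over 6 transcripts and 4 comparisons of groups, 1 of 24 two-sided exact permutation tests of the share of counts had a P below 0.05 and none had an adjusted P below it, the smallest being 0.457. The one was Fmo4-202, with 94.3% ± 4.83 in female LL and 84.2% ± 8.67 in female PP (n = 5 and 5, exact P of 0.0476). The smallest P these tests can give is 0.00794 for 5 against 5 or 4 against 5 mice and 0.0286 for 4 against 4. An antisense lncRNA gene annotated within Fmo5, Gm64400, was not among the transcripts quantified. The division between transcripts is an estimate, as overlapping transcripts share their reads. Between genes, 8.90% of the 31-base words in the annotated transcripts of Fmo1 also occur in other genes, against 0.0354% for Fmo2, 0% for Fmo4 and 0.491% for Fmo5.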

How the data were processed

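Liver RNA was extracted by the authors with Trizol and columns with DNase digestion, and libraries were made from samples above their limit of RNA integrity. Reads were checked with FastQC and not trimmed, and the authors ran Salmon (1.4.0 per the processing notes of the submitters) against GENCODE transcripts of release M26 (GRCm39). Layout and strand were not given in the sources used here, so antisense reads cannot be told apart. Per the file headers, each deposited table gives length, effective length, TPM and estimated counts for 139225 transcripts. The TPM values deposited add up to the same total in each library, and the estimated counts deposited were left unscaled by the authors.

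Here 137570 of the transcripts were joined to genes by GENCODE M39 (at least 99.76% of the counts of a library). Estimated counts were summed per gene and rounded, and genes that reached 10 counts in 4 or more libraries were kept. DESeq2 1.42.0 in R 4.3.3 was run with the Wald test on all 18 libraries in 1 fit with 4 groups, and P values were adjusted by Benjamini-Hochberg over those of the 10938 genes that passed the independent filtering of DESeq2 in a comparison. Genes below that filter have no adjusted P. On simulated counts of 10938 genes with 200 genes changed 2-fold, DESeq2 recovered 167 for male LL against male PP with 22 false calls, 188 for female LL against female PP with 19, 183 for female PP against male PP with 18 and 173 for female LL against male LL with 23, and edgeR recovered 154 to 177 with 3 to 11 false calls. The changed genes were drawn from those with a mean of at least 50 normalized counts, which is above that of Fmo4. Each simulated gene had the same dispersion in all groups. Recovery was thus not measured for genes as low as Fmo4, for changes below 2-fold or for groups of unequal spread. Fragment length was taken as length less effective length over transcripts of at least 3000 bases.

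Correlations used log2(normalized count + 1). Shares of transcripts were tested by exact permutation (SciPy 1.17.1) in libraries with at least 10 counts on the gene. Alternatives were edgeR 4.0.16, no low-count filter, no independent filtering, an offset for transcript length, terms for fragment length or age, only the 2 groups compared, a block of replicate numbers, and 18 fits without 1 library. TPM of transcripts of at least 1500 bases was added after seeing the data.

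The genes named were the 4 members and, for each, the 3 genes outside the Fmo family most alike in pattern. Protein-coding neighbours within 500 kb were also named, as were those of the list of 23 related genes that passed in any comparison. Members and lists were chosen with earlier results of these data known. No 2 libraries of 1 group agreed within counting error (chi-square per degree of freedom of 11.8 to 96.5 over 32 pairs). Each library was from 1 mouse. Intervals rest on 1 estimate per gene of the spread between mice, shared by the 4 groups, so they do not follow the spread of any single group.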

Additional observations from a re-analysis of the deposited data

How the results depend on the processing

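Fmo2 and Fmo5 kept their calls and directions in both comparisons of the sexes under every alternative run, with log2 fold changes of 2.39 to 3.18 and -0.95 to -0.68 in PP mice and 1.65 to 2.40 and -0.99 to -0.71 in LL mice, apart from the TPM scale, on which Fmo5 of PP mice turned. Fmo1 and Fmo4 were less stable. In the comparison of female PP and male PP, an offset for transcript length ended the call of Fmo1 (log2 fold change 0.36) and edgeR that of Fmo4 (0.99). In female LL against male LL, the call of Fmo1 ended with edgeR (0.68), the length offset (0.65) and the fragment length term (0.61), and that of Fmo4 with edgeR (0.91), no low-count filter (0.91), the length offset (0.78) and only the 2 groups compared (0.92). The cause was not tested.

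Leaving out 1 library gave log2 fold changes of 0.84 to 1.07 for Fmo4 in female PP against male PP, and of 0.51 to 0.90 for Fmo1 and 0.70 to 1.37 for Fmo4 in female LL against male LL. It gave -0.11 to 0.28 for Fmo1, -0.14 to 0.53 for Fmo4 and -0.18 to 0.10 for Fmo5 in male LL against male PP, and -0.050 to 0.090 for Fmo1, -0.20 to 0.16 for Fmo2 and -0.13 to 0.058 for Fmo5 in female LL against female PP. For the interaction it gave -0.24 to 0.14 for Fmo1, -0.29 to 0.38 for Fmo4 and -0.13 to 0.14 for Fmo5. Among these values near 0, none of which was called, other signs came from the fragment length term (0.093 for Fmo5 in males, -0.062 for Fmo1 and 0.13 for Fmo5 in females, 0.026 for Fmo4 and 0.036 for Fmo5 in the interaction), the age term (-0.012 for Fmo1 in females), the length offset (-0.11 for Fmo4 in females, 0.29 for Fmo1 in the interaction) and only the 2 groups compared (0.00045 for Fmo5 in males).

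The number of genes called by genotype was less stable than that by sex. In males it was 31, and 3 with edgeR, 53 with the length offset and 20 to 60 without 1 library. In females it was 72, and 3 with edgeR, 28 with the length offset, 14 with the fragment length term, 44 with the age term and 28 to 270 without 1 library. For the interaction it was 13, and 0 with edgeR, 8 without independent filtering and 3 to 27 without 1 library. In female LL against male LL it was 669, and 432 with the fragment length term. None of the 4 genes was among those called by genotype under any alternative.

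On the TPM scale the log2 ratio of group means for female PP against male PP was 1.10 as deposited and 1.70 over transcripts of at least 1500 bases for Fmo1, 4.00 and 3.39 for Fmo2, 1.84 and 1.88 for Fmo4 and 0.083 and -0.025 for Fmo5. For Fmo5 it was -0.58 and -0.48 in female LL against male LL and 0.25 and 0.37 in male LL against male PP, and -0.42 as deposited in female LL against female PP. Over the longer transcripts it was 0.67 for Fmo1, 1.14 for Fmo2 and 0.88 for Fmo4 in male LL against male PP, and as deposited -0.61 for Fmo2 and -0.20 for Fmo4 in female LL against female PP. The median of all genes was itself at 0.34 in the males and -0.11 in the females. Less that median, the male values over the longer transcripts were 0.33 for Fmo1, 0.80 for Fmo2, 0.54 for Fmo4 and 0.03 for Fmo5. The female values as deposited were then -0.49 for Fmo2, -0.08 for Fmo4 and -0.30 for Fmo5. Within groups the TPM of Fmo2 varied widely, and these ratios were not tested.

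Differences in the share of a transcript, in percentage points, without 1 library were -2.37 to 4.08 for Fmo1-201 and -9.01 to 1.34 for Fmo4-202 in males by genotype. In female LL against male LL they were -3.85 to 1.82 for Fmo1-201 (1.34 as a share of TPM), -0.29 to 11.3 for Fmo5-202 and -1.36 to 2.16 for Fmo5-203. No share passed under any of these.

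With the replicate number as a block, the log2 fold changes of female PP against male PP were 0.75, 2.50, 1.08 and -0.90 for Fmo1, Fmo2, Fmo4 and Fmo5, and the block changed no call of the 4 genes. The deviations of samples of the same number correlated between -0.17 and 0.16 over 17 pairs, 3 of them above 0.1. Within each group the numbers follow the order of age, so the block is in part confounded with age. The match is not full, as number 1 was aged 9 weeks in male PP and 13 weeks in male LL. Age and the block were not fitted together. Whether samples of the same number shared anything else was not tested. Fmo4 had the fewest counts of the 4 genes and Fmo2 the largest SE in every comparison, and the effect of depth was not tested.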
